A study of Mus musculus with 6 samples.

Results

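Regions carrying peaks of Tgif1, Tgif2 and Hdac1, and of neither Nanog nor Smad3, were described across chromosomes 1 to 19 of the mouse genome (build mm9). The members were selected on the peak calls alone. All peaks of the 5 factors that overlapped by at least 1 bp were merged, and a merged region was kept when it held a peak of each of the 3 corepressor proteins and no peak of the other two. Of 32551 merged regions, 4895 met this rule (15.0%, 95% Wilson interval 14.7 to 15.4). Among the 31 combinations of factors that occurred, only Nanog alone was more frequent, with 7154 regions. These 4895 regions held 31.2% of the 16273 Tgif1 peaks on chromosomes 1 to 19, 26.9% of the 18976 Tgif2 peaks and 30.6% of the 16398 Hdac1 peaks.

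The peaks came from ChIP-seq, in which DNA bound by a protein is precipitated and sequenced. The cells were J1, a line of mouse embryonic stem cells, grown on gelatin in serum with leukemia inhibitory factor, which keeps the cells undifferentiated. All of them contained BirA, a biotin ligase from bacteria that puts biotin on proteins bearing its acceptor tag. According to the labels, antibodies were used for Tgif1, Hdac1 and Smad3, and streptavidin beads, which capture biotin, for Tgif2 and Nanog. For Tgif2 this rests on the sample label alone, as the series' design text ties the biotin method to Nanog only. Each factor had 1 library, so no value below has a replicate check and none was tested, and the mock library of BirA cells was not analysed here. The 95% intervals of shares (Wilson) and of medians (order statistics) cover counting error over regions only, and regions of the same libraries are not replicates. A missing Nanog or Smad3 peak means that none passed the authors' peak caller at that place, not that the protein was absent.

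Tgif1 and Tgif2 are closely related homeodomain proteins of the TALE family that act as transcriptional corepressors. They bind Smad proteins, the effectors of TGF-beta and Activin signals, and can bring histone deacetylases to DNA. Hdac1 removes acetyl groups from histones as part of the Sin3, NuRD and CoREST complexes. Nanog, also a homeodomain protein, is part of the network that holds embryonic stem cells pluripotent, and Smad3 enters the nucleus when TGF-beta or Activin receptors are active. The regions described here therefore hold peaks of the 2 corepressors and the deacetylase and none of Nanog or Smad3, the other factors assayed.

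In most members the peaks of the 3 proteins shared a stretch of DNA, which the merging of overlapping peaks itself favours. In 4509 members (92.1%, 91.3 to 92.8) there was exactly 1 peak of each factor, and in 4492 of these the 3 peaks shared a common stretch of DNA. That stretch had a median of 842 bp and made up a median of 67.3% of the region's width (quartiles 55.1% and 77.0%). Joining by chains of peaks was therefore rare in single-peak members. The 386 members with more than 3 peaks were not examined for a common stretch. In single-peak members the Tgif1 and Tgif2 peaks failed to overlap each other in 5 regions, the Tgif1 and Hdac1 peaks in 8, and the Tgif2 and Hdac1 peaks in 4. Hdac1 gave the widest of the 3 peaks in 2176 single-peak members (48.3%), Tgif2 in 1531 (34.0%) and Tgif1 in 813 (18.0%). In 937 members (20.8%) the Hdac1 peak spanned the whole region, so that both Tgif peaks lay inside it. The same held for the Tgif2 peak in 496 (11.0%) and for the Tgif1 peak in 159 (3.53%).

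Member regions were compact. Their width ran from 434 to 5295 bp with a median of 1382 bp (1369 to 1398), and together they covered 7.30 Mb. The regions with the most peaks were those where several peaks of a factor followed each other. The region at chr5:125866363-125870742 held 7 peaks, 3 of Tgif1, 2 of Tgif2 and 2 of Hdac1. A further 19 members held 6 peaks each, and the 4 widest of them lay at chr19:45088183-45093478, chr8:73131250-73136399, chr7:52959566-52964093 and chr10:20877734-20881685. In all, 386 members held more than 3 peaks.

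Peak strength was read in 2 ways, as the fold enrichment over background and as the number of sequence tags in the peak, both the authors' own values for each peak. Because the peak calls chose the members, these values are a description. Where a region held several peaks of a factor, the peak with the highest fold stood for the region. Values of different factors come from different precipitations, so the size of a fold cannot be compared between factors even where values stand side by side. Each was set against the same factor's values in other combinations and against that factor's own list.

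Tgif1 fold in the members ran from 4.26 to 288.62 with a median of 14.07 (13.82 to 14.35), and its tags from 30 to 465 with a median of 61. Tgif2 fold ran from 4.55 to 568.71 with a median of 15.89 (15.61 to 16.37), and its tags from 33 to 554 with a median of 72. Hdac1 fold ran from 3.81 to 199.36 with a median of 9.78 (9.67 to 9.91), and its tags from 28 to 316 with a median of 51. The upper ends of these ranges are the highest folds of the whole lists: the strongest peak by fold of Tgif1, of Tgif2 and of Hdac1 on chromosomes 1 to 19 each lay in a member region. The lower ends reach almost down to the weakest peaks of the lists, whose lowest folds were 2.83, 3.98 and 3.77.

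Relative to their own lists and by fold, the Tgif peaks of the members leaned towards the strong end and the Hdac1 peaks towards the weak end. By tags the Hdac1 peaks did not lean towards the weak end. The strongest 20% of each list was taken as the mark. Tgif1 lay in the top 20% of its list by fold in 23.3% of members (22.2 to 24.5), and Tgif2 in 26.3% (25.04 to 27.50). Hdac1 lay there in 14.4% (13.5 to 15.4), while 26.3% of members had an Hdac1 peak in the bottom 20% of its list. By tags, which grow with peak width, the same shares were 24.6% for Tgif1, 31.3% for Tgif2 and 19.9% for Hdac1. The bottom 20% of the Hdac1 list by tags held 12.4% of members (11.47 to 13.31), and their median of 51 Hdac1 tags stood beside 47 for all peaks of that list.

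The combination most like the members is the 3371 regions that hold Nanog as well and still no Smad3. There the median Tgif1 fold was 15.06 (14.77 to 15.36) and the median Tgif2 fold 15.07 (14.83 to 15.46). Against these regions the members were thus somewhat lower in Tgif1 and somewhat higher in Tgif2, with intervals that did not overlap. Hdac1 differed more: its median fold was 11.59 (11.42 to 11.80) with Nanog against 9.78 without, and its median tags 60 (59 to 61) against 51 (50 to 52). Hdac1 peaks were of nearly the same width in both, with medians of 1146 bp in the members and 1137 bp with Nanog. Tags per kb of Hdac1 peak were 43.9 in the members (43.6 to 44.3) and 50.6 with Nanog (50.2 to 51.0). A lower value in the members was not particular to Hdac1. Tags per kb of Tgif1 peak were 58.1 (57.7 to 58.8) and 64.8 (63.9 to 65.5) in the same order. For Tgif2 they were 64.3 (63.5 to 64.9) and 66.0 (65.3 to 66.6).

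Combinations with fewer of the 3 proteins held weaker Tgif peaks. In the 2788 regions with Tgif1 and Tgif2 only, the median Tgif1 fold was 12.20 and the median Tgif2 fold 13.43. Both were below the members' values. In the 641 regions with Tgif1 and Hdac1 only the median Tgif1 fold was 11.83, and in the 1258 with Tgif2 and Hdac1 only the median Tgif2 fold was 12.40. Hdac1 itself did not follow this order, since its median fold in those pairs, 9.76 and 9.64, was within the interval of the members or next to it. Its median tags were 40 and 41 in the pairs, below the 51 of the members.

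**Figure D1:**
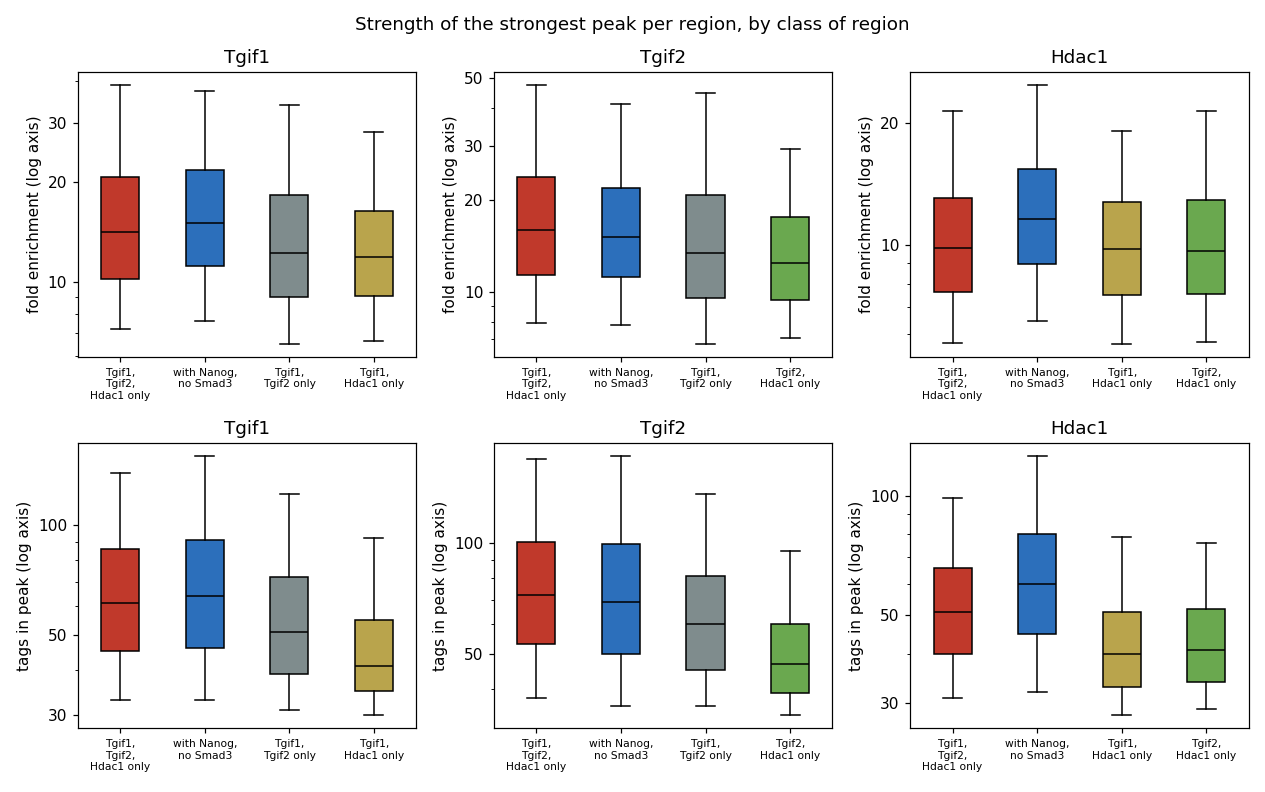
Fold enrichment (upper row, log axis) and tags (lower row, log axis) of the strongest Tgif1, Tgif2 and Hdac1 peak per region, for the 4895 regions with the 3 factors only and for 4 related combinations. Boxes span the quartiles with the median as a line, and whiskers reach the 5th and 95th percentiles over regions of 1 library per factor. The median Hdac1 box sits lower in the members (9.78) than in the regions that also hold Nanog (11.59), while the Tgif boxes of the members sit above those of the pairs.

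The very strongest peaks of the lists were concentrated in the members when ranked by fold. Of the 100 Tgif1 peaks with the highest fold, 47 lay in members (37.5% to 56.7%), against 31.2% of all Tgif1 peaks. Of the 100 Tgif2 peaks with the highest fold, 54 did (44.3% to 63.4%), against 26.9% of all. The ranking by tags did not show this for Tgif1, where 16 of the top 100 peaks lay in members and 33 in the regions with all 5 factors. For Tgif2, 36 of the top 100 by tags did.

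Hdac1 behaved differently at its extreme and just below it. All of the 10 Hdac1 peaks with the highest fold lay in members, and none in a region with Nanog. Of the top 100 by fold, 35 lay in members, and of the top 1000 only 193 (19.3%, 17.0 to 21.9), below the 30.6% of the whole list. By tags no such excess was seen at the top: 1 of the top 10 Hdac1 peaks lay in a member and 6 in regions with Nanog. Strong Hdac1 peaks by fold were thus rarer in the members than in the list as a whole, apart from a small set at the very top.

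That set stands apart in the plot of fold for pairs of factors. An Hdac1 fold above 50, a limit set after the values were seen, was reached by 32 peaks of the list. Of these 19 lay in members (59.4%, 42.3 to 74.5), 5 in the regions with Nanog added, 6 in regions with Hdac1 alone and 2 with Tgif1 and Hdac1. In the 19 members the Hdac1 fold ran from 51.00 to 199.36 with a median of 83.00. They lay on 13 chromosomes and were narrow, with a median width of 816 bp. Their Tgif1 fold was above the members' median in 19 of 19, with a median of 37.17, and their Tgif2 fold in 18 of 19, with a median of 35.42. Their Tgif tags were not raised, with medians of 54 for Tgif1 and 64 for Tgif2 against 61 and 72 over all members. The 3 summits fell within 50 bp of each other in 18 of 19, with a median span of 19 bp.

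The 5 strongest Hdac1 peaks of the members show the high Tgif folds and close summits one by one. The region at chr8:14072280-14073163 had an Hdac1 fold of 199.36 with 199 tags, a Tgif1 fold of 37.83 with 55 tags and a Tgif2 fold of 46.33 with 65 tags. At chr18:25826411-25827173 the folds were 188.40 for Hdac1, 81.32 for Tgif1 and 90.13 for Tgif2. At chr19:4988831-4989641 they were 142.04, 27.06 and 29.44 in the same order. These regions combined an exceptional Hdac1 fold with high Tgif folds. The Tgif folds lay at percentiles 88.8 (Tgif1) and 88.3 (Tgif2) of their lists in the chromosome 19 region. In the chromosome 18 region they lay at 99.7 and 99.5. At chr4:152173291-152174107 the Hdac1 fold was 125.53, with folds of 37.37 for Tgif1 and 35.42 for Tgif2. At chr7:6362626-6363396 the Hdac1 fold was 118.82, with folds of 23.72 for Tgif1 and 32.34 for Tgif2. In the last the 3 summits lay within 2 bp. Tgif tags differed between these regions. Tgif1 and Tgif2 tags were 75 and 96 in the chromosome 18 region and 80 and 99 in the chromosome 7 region. In the chromosome 19 region they were 70 and 70, and in the chromosome 4 region 56 and 64.

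The strongest Tgif regions were a different set. The region at chr2:30400212-30401444 had a Tgif1 fold of 288.00 with 284 tags, a Tgif2 fold of 568.71 with 554 tags and an Hdac1 fold of 38.31 with 67 tags. Its summits lay within 7 bp, and it had the best sum of the 3 fold ranks of all members. The region at chr11:31769970-31771451 was its closest match, with folds of 288.62 for Tgif1, 360.88 for Tgif2 and 29.28 for Hdac1 and a summit span of 7 bp as well. Both Tgif proteins reached their highest folds in these 2 places. The next region by Tgif1 fold, at chr4:109348584-109349836, had a Tgif1 fold of 155.63, a Tgif2 fold of 191.26 and an Hdac1 fold of 18.59, at percentile 88.0 of its list.

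The remaining regions among the 10 with the highest Tgif1 fold had Tgif1 folds from 104.07 to 143.42, Tgif2 folds from 81.61 to 209.92 and Hdac1 folds from 21.40 to 41.10. In fold order they lay at chr13:53472258-53473132, chr7:31319421-31321059, chr3:104564930-104565851, chr9:106558252-106559099, chr8:96909821-96912045, chr15:57907225-57908872 and chr5:143648251-143649083. The third highest Tgif2 fold of the members, 266.99, was at chr7:4795053-4797228, where the Tgif1 fold of 79.71 was the 28th highest of the members. The regions at chr11:115760997-115761837, chr8:114652629-114653264 and chr15:58044977-58047443 complete the 10 with the best rank sum.

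At the other end, the 5 members with the worst rank sum included 3 on chromosome 1. The region at chr1:95581754-95583783 had folds of 4.60 for Tgif1, 5.72 for Tgif2 and 5.06 for Hdac1, yet 93, 119 and 96 tags. The tags of this region were above the median of the members for each factor. The others were chr1:74551606-74553672, chr4:132088251-132089968, chr1:158232910-158234200 and chr19:5490111-5492037, with Tgif1 folds from 4.26 to 6.50.

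Across the 4895 members the strengths of the 3 proteins varied together, and those of the paralogs most closely. Spearman's rho of fold was 0.698 between Tgif1 and Tgif2, 0.503 between Tgif1 and Hdac1 and 0.511 between Tgif2 and Hdac1. These are descriptions across regions that share their local background and peak width. With tags the values were 0.618, 0.459 and 0.443. The 3371 regions with Nanog gave closely similar rho of fold, 0.682, 0.484 and 0.466, so a similar coupling was seen there. Tag number followed the width of its own peak (rho of 0.757, 0.747 and 0.806 for Tgif1, Tgif2 and Hdac1), whereas fold did not (-0.09, -0.04 and -0.22). For Hdac1, fold and tags were almost unrelated, with a rho of -0.02.

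Membership of the strongest 10% of members by fold was shared unevenly. Of the 489 members in the top 10% by Tgif1, 287 (58.7%, 54.3 to 63.0) were in the top 10% by Tgif2 and 183 (37.4%, 33.2 to 41.8) in the top 10% by Hdac1. All 3 proteins were in their top 10% in 123 members. Opposite extremes were rare: 8 members were in the top 10% by Tgif1 and the bottom 10% by Hdac1, and 0 the other way round, an upper limit of 3 regions being what a count of 0 allows. In 2 members a Tgif protein was in its top 10% while its paralog was in its bottom 10%. By tags the same 3 counts were 15, 14 and 8, so the imbalance between Tgif1 and Hdac1 seen by fold was not seen by tags.

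Ordered into quintiles by Tgif1 fold, the members' median Tgif1 fold went from 8.13 in the lowest quintile to 30.49 in the highest. The median Tgif2 fold went from 10.55 to 32.34 along the same order, and the median Hdac1 fold from 7.47 to 13.70. Both were higher in each quintile than in the one before. Median Hdac1 tags stayed flat over these quintiles, at 53, 51, 50.5, 50 and 52.

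**Figure D2:**
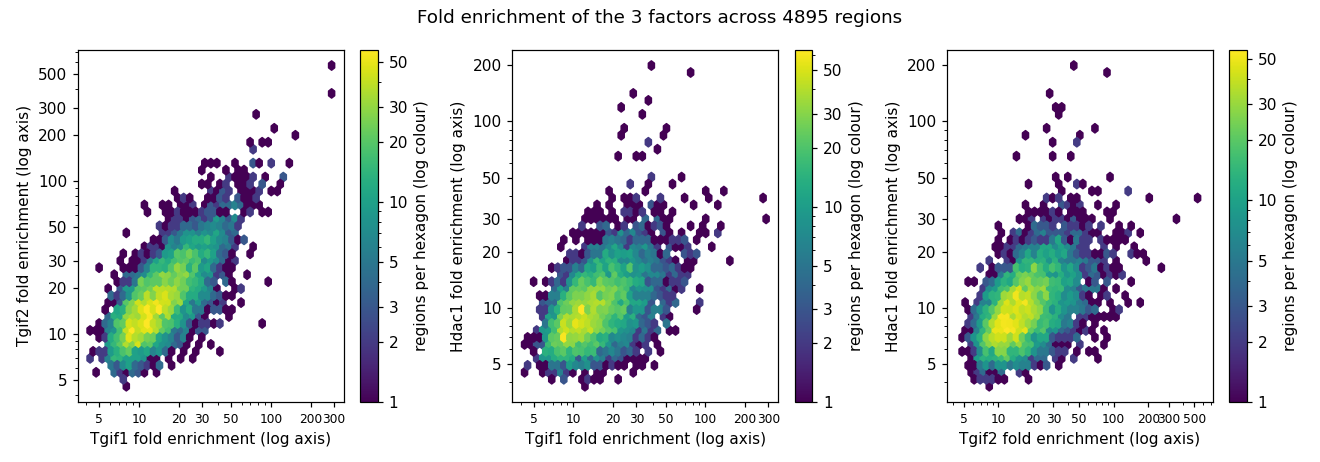
Fold enrichment of Tgif1 against Tgif2, Tgif1 against Hdac1 and Tgif2 against Hdac1 in the 4895 member regions, on log axes, with hexagons coloured by the number of regions. The Tgif1 and Tgif2 cloud is the narrowest (rho of 0.698), and the regions with an Hdac1 fold above 50 form a sparse group above the main cloud in the panels with Hdac1.

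Tgif1, Tgif2 and Hdac1 peaks met in 8938 regions, and 54.8% of these (53.7 to 55.8) lacked Nanog and Smad3 and so were members. How often they did varied with the strength of the Hdac1 peak. In the lowest quintile of Hdac1 fold 71.5% were members, and over the next quintiles the share was 60.6%, 53.6%, 47.7% and 40.5%. By Hdac1 tags it was 66.0%, 66.3%, 58.2%, 50.9% and 32.2%, so the share fell only from the second quintile on. Tags grow with peak width, and wide regions were also less often members. By quintiles of region width the share was 53.4%, 58.7%, 59.9%, 59.2% and 42.6%. By fold, the stronger the Hdac1 peak of a region with all 3 proteins, the more often a Nanog or Smad3 peak was there too. This held up to the few extreme peaks described above.

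Tgif1 showed a smaller change in the same direction, and Tgif2 did not. Over the quintiles of Tgif1 fold the share of members was 64.0% (61.7 to 66.2), 54.8%, 52.9%, 50.1% and 52.0% (49.7 to 54.4), so that most of the change lay between the lowest quintile and the next. By Tgif1 tags it was 56.3% in the lowest quintile, 59.0% in the next and 48.1% in the highest. Over the quintiles of Tgif2 fold the share went in the opposite direction, from 52.5% (50.2 to 54.8) to 58.9% (56.6 to 61.1). By Tgif2 tags it was 49.2% in the lowest quintile, 58.3% in the second highest and 53.2% in the highest.

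The gradient by Hdac1 fold was present in every stratum examined, and the gradient by Hdac1 tags was not split into strata. The share of members was lower in the highest than in the lowest quintile of Hdac1 fold on 19 of 19 chromosomes. Among regions in the lowest quintile of Tgif2 fold it was 68.4% at the weakest Hdac1 (of 709 regions) and 18.2% at the strongest (of 66 regions, 10.7 to 29.1). Among those in the highest quintile of Tgif2 fold it was 77.8% and 49.6%. Within the narrowest quartile group of Hdac1 peaks it was 68.6% and 42.9%, and within the widest quartile group 64.4% and 33.6%. Nearly all regions that were not members held Nanog, as only 10 held the 3 proteins with Smad3 and without it. How deeply the Nanog library was sequenced is unknown here, and its part in where Nanog peaks were missing was not tested.

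**Figure D3:**
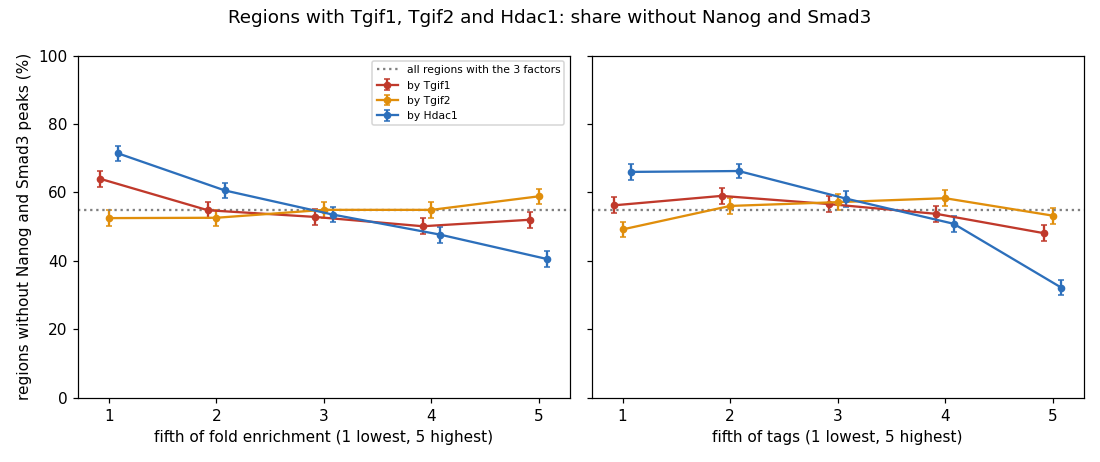
Share of the 8938 regions with Tgif1, Tgif2 and Hdac1 peaks that lack Nanog and Smad3 (%), by quintile of fold enrichment (left) and of tags (right) of each factor, with 95% Wilson intervals over regions. The dotted line marks the share over all 8938 regions (54.8%), and the Hdac1 points go down from 71.5% to 40.5% in the left panel and from 66.0% to 32.2% in the right panel.

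Summits, the positions of highest signal in each peak, were not used to choose the members. The summits of the paralogs lay closest to each other. The median distance was 43 bp (41 to 45) between Tgif1 and Tgif2, 74 bp (70 to 78) between Tgif1 and Hdac1 and 81 bp (77 to 85) between Tgif2 and Hdac1. In 54.3% of members the Tgif1 and Tgif2 summits were within 50 bp of each other, as were the Tgif1 and Hdac1 summits in 40.8% and the Tgif2 and Hdac1 summits in 37.9%. Each distribution had a long tail, with 9.97%, 12.3% and 14.1% of members over 500 bp in the same order.

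Taking the 3 summits of a member together, they spanned a median of 142 bp (131 to 154). In 1193 members (24.4%) all 3 fell within 50 bp, and in 2102 (42.9%) within 100 bp. The paralogs were the closest pair in 46.2% of the 4857 members with a single closest pair, against 27.9% for Tgif1 with Hdac1 and 26.0% for Tgif2 with Hdac1. Hdac1 was the middle summit in 25.2% of the 4815 members with 3 distinct summits, less often than Tgif1 (38.7%) or Tgif2 (36.1%).

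At the median, Hdac1 summits lay farther from Tgif1 summits in the members than where Nanog was also present. With Nanog the median distance was 56 bp (53 to 59) for Tgif1 to Hdac1 and 62 bp (59 to 65) for Tgif2 to Hdac1, both below the members' values. The tail did not differ in this way, since 12.3% of members and 12.4% of the regions with Nanog had Tgif1 and Hdac1 summits over 500 bp apart. The midpoints of the Tgif1 and Hdac1 peaks, set by the peaks' edges, were a median of 95.5 bp apart in the members and 96.5 bp with Nanog. For the paralogs it was 41 bp (39 to 44) with Nanog, and the interval overlapped that of the members. The members were closer to the regions with a single Tgif protein and Hdac1, where the medians were 79 bp (71 to 93) for Tgif1 to Hdac1 and 80.5 bp (72 to 91) for Tgif2 to Hdac1. In the regions with the Tgif paralogs only, their summits lay 38 bp (36 to 40) apart.

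The distance also moved with the strength and width of the Hdac1 peak. From the lowest to the highest quintile of Hdac1 fold the median Tgif1 to Hdac1 distance in the members was 153, 86, 71, 60 and 43 bp. With Nanog, over quintiles made within those regions, it was 107, 60, 54, 47 and 37 bp. Quintiles of the same number were not of equal fold. Their median Hdac1 folds ran from 6.28 to 17.46 in the members and from 7.23 to 20.55 with Nanog. Quintiles nearer in fold differed less in distance. At median folds of 9.78 (members) and 9.44 (with Nanog) it was 71 bp (61 to 81) and 60 bp (52 to 69). At 12.23 and 11.59 it was 60 bp (53 to 71) and 54 bp (48 to 62). Both pairs of intervals overlapped. At 7.99 and 7.23 the members had the shorter distance, 86 against 107 bp. The part of the members' lower Hdac1 fold was not tested. Quartile groups of Hdac1 peak width had the same limits in both. There the distance was 43, 69, 95 and 134 bp in the members and 39, 56, 60 and 101 bp with Nanog. The members had the longer distance in each group, and the intervals were separate in the 2 middle groups but overlapped in the narrowest and the widest.

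**Figure D4:**
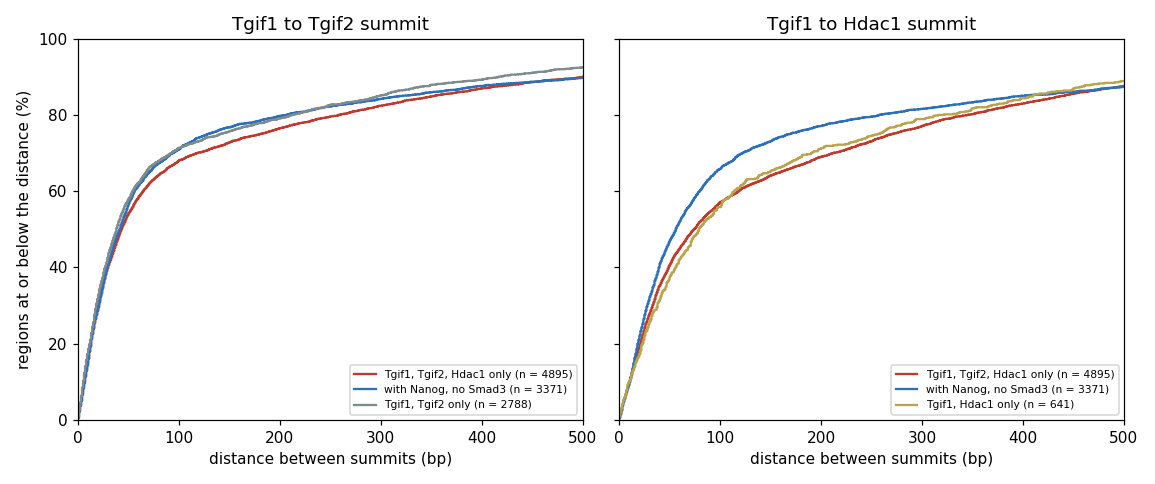
Cumulative share of regions (%) by the distance in bp between the Tgif1 and Tgif2 summits (left) and the Tgif1 and Hdac1 summits (right), up to 500 bp. The left curves run close together (medians of 38 to 43 bp), and on the right the curve of the 4895 members (median of 74 bp) runs below that of the 3371 regions with Nanog (median of 56 bp) over most of the range.

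Although the rule bars any overlap with Nanog, most members had a Nanog peak in the wider neighbourhood. The nearest Nanog peak lay at a median of 28.3 kb (27.0 to 29.8) from the region's edge, with quartiles of 8.78 and 71.3 kb. It was within 1 kb in 214 members (4.37%), within 10 kb in 1342 (27.4%) and within 100 kb in 4089 (83.5%). In 5 members it was over 1 Mb away. Other regions without Nanog had it at similar or shorter distances, with medians of 29.6 kb for Tgif1 and Tgif2 only, 23.7 kb for Tgif2 and Hdac1 only, 19.9 kb for Tgif1 and Hdac1 only and 18.4 kb for Hdac1 alone. Smad3 peaks, of which there were 1199 on these chromosomes, were far off, at a median of 447 kb, and 145 members (2.96%) had one within 10 kb.

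Tgif folds were lower in members close to a Nanog peak than in members far from any, and Hdac1 folds were not separated. In the 214 members with a Nanog peak within 1 kb the median folds were 12.8 for Tgif1 (11.9 to 14.0), 14.3 for Tgif2 (12.9 to 15.2) and 9.92 for Hdac1 (9.34 to 10.3). In the 806 members with none within 100 kb they were 14.9 (14.3 to 15.4), 16.5 (16.1 to 17.7) and 9.80 (9.42 to 10.2). The intervals of fold of the near and far members were separate for Tgif1 and for Tgif2 and overlapped for Hdac1. Tags gave another picture. Median Tgif1 tags were 59 near (55 to 67) and 62 far (59 to 64). Median Tgif2 tags were 65.5 near (60 to 71) and 74 far (70 to 77), so both pairs of intervals overlapped. Median Hdac1 tags were higher near Nanog, at 54 (50 to 56) against 48 (47 to 50), with intervals that met at 50. The near members were also wider, with medians of 1543.5 and 1342 bp.

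Few regions lay near the edge of the rule. Just inside it, 12 members had a Nanog peak at most 100 bp away. At chr7:29746634-29748142 the Nanog peak touched the region at a gap of 0 bp, and the next shortest gaps were 4 bp at chr10:60276994-60278360, 6 bp at chr11:12363660-12365555, 7 bp at chr7:31238378-31239706 and 12 bp at chr15:61820502-61821698. Just outside it, 3 regions were kept from membership by a Nanog peak that overlapped by at most 100 bp, the smallest overlap being 22 bp. More regions lay close to the edge of the rule by the strength of their Nanog peak than by its position. In 533 of the 3371 regions with Nanog (15.8%) the strongest Nanog peak had at most 20 tags, near the 16 tags of the weakest Nanog peak in the list.

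Members were spread over all 19 autosomes in uneven number. They made up from 10.8% of the merged regions on chromosome 1 to 18.7% on chromosome 19. Their density ran from 1.14 per Mb on chromosome 6 to 3.90 per Mb on chromosome 11, which alone held 463. Of the regions with the 3 proteins, from 41.6% on chromosome 1 (37.9 to 45.4, of 673 regions) to 62.8% on chromosome 16 were members. Chromosome 1 also had the lowest median fold of the members' Tgif1 (11.47) and Hdac1 (8.08) peaks, while its median tags, 69.5 for Tgif1, 94.5 for Tgif2 and 56 for Hdac1, were the highest of any chromosome. What sets chromosome 1 apart was not tested. Without it, the share of members among regions with the 3 proteins was 55.8%.

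**Figure D5:**
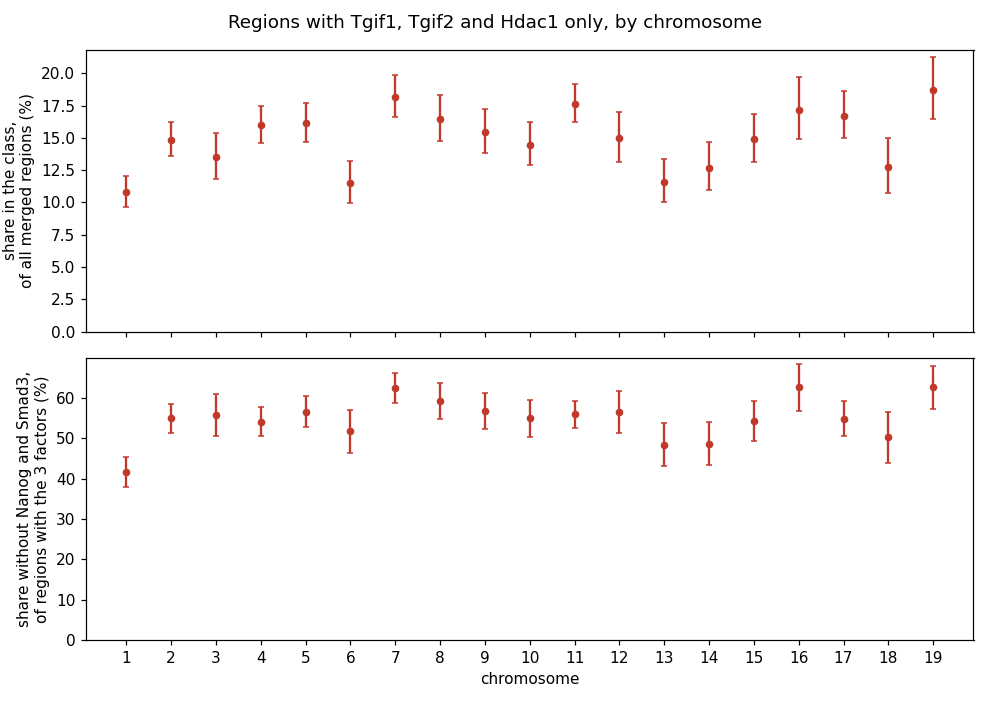
Share of all merged regions (upper panel, %) and of regions with Tgif1, Tgif2 and Hdac1 peaks (lower panel, %) that were members, by chromosome, with 95% Wilson intervals over regions. Chromosome 1 is lowest in both panels (10.8% and 41.6%), and chromosomes 19 and 16 are highest in the upper and the lower panel (18.7% and 62.8%).

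Most members had another member in the wider neighbourhood, but few had one close by. The nearest other member lay at a median of 52.5 kb (49.8 to 55.9), and 3256 members (66.5%) had one within 100 kb. Within 1 kb the share was 2.35%. Within 10 kb it was 14.7% (13.7 to 15.7), lower than the 22.6% (21.2 to 24.0) of the regions with Nanog and higher than the 9.07% (8.06 to 10.2) of the regions with the paralogs only. These shares move with the number of regions in each combination. Linking members at most 10 kb apart left 4177 on their own, 289 pairs, 38 runs of 3, 5 runs of 4 and a single run of 6.

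The run of 6 spanned 40.02 kb at chr11:120469952-120509972, where Tgif1 folds ran from 5.08 to 34.74, Tgif2 folds from 7.29 to 46.83 and Hdac1 folds from 5.77 to 12.98. It lay in one of the densest stretches of the genome for these regions. Of the 1-Mb windows, the one at 148 to 149 Mb of chromosome 7 held the most members, 24 of its 65 merged regions, beside 17 Nanog peaks. The window at 120 to 121 Mb of chromosome 11 held 23 of 63, and that at 52 to 53 Mb of chromosome 7 held 22 of 90. In total 99 windows with at least 10 members held 1327 of them (27.1%), out of 1347 windows with any. The share of all merged regions in those 99 windows was not computed, so the count does not set members apart from peaks in general.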

How the data were processed

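The data were 5 peak lists of 1 library each. Per the submitters' processing notes, reads were aligned with BWA 0.5.9-r16 and peaks called with MACS on mm9. Settings, threshold, control library and depth are not given in the sources used here. The deposited lists have no header. One column was read from its values as the authors' fold enrichment (a ratio) and one as the deposited count of tags per peak. The last 3 columns, equal in each peak, were read as its summit. Coordinates are given as deposited, with no stated base for the starts.

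Peaks were merged where they overlapped by at least 1 bp. The members, classes and named regions were chosen with earlier results of these data known. The named regions are the 10 members with the highest Tgif1 fold, the 5 with the highest Tgif2 or Hdac1 fold, the 10 best and 5 worst by summed ranks of fold, the 5 with most peaks (the widest first among ties) and the 5 nearest a Nanog peak. The split by Hdac1 fold and the counts of top peaks were added after seeing values. Quintiles were cut on the regions compared, and the top and bottom 20% of a list on its chromosome 1 to 19 peaks. Annotation and sequence of mm9 were not used here, so the planned gene, start-site and motif counts were not run and no sequence is printed. The merge was tested on simulated data and checked against bedtools 2.31.1, with 0 of 32551 regions differing. The work was done in Python 3.11.15 (pandas 2.3.3, NumPy 2.4.6) with intervals from statsmodels 0.14.6 and SciPy 1.17.1 and plots from matplotlib 3.10.9.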

Additional observations from a re-analysis of the deposited data

Results flagged for a closer look

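Regions with peaks of Tgif1, Tgif2 and Hdac1 and none of Nanog or Smad3 also occurred off chromosomes 1 to 19, in peaks that the comparisons above do not use. On the X chromosome 7 of 428 merged regions (1.64%) held this combination, against 15.0% on chromosomes 1 to 19. Their median folds were 15.52 for Tgif1, 26.50 for Tgif2 and 13.70 for Hdac1, and the strongest by Tgif1 was chrX:91611842-91612948 with a Tgif1 fold of 47.44. On unplaced and random sequences 5 of 173 merged regions (2.89%) did, with Tgif1 folds from 17.74 to 24.97. No control library was analysed here, so these counts have no background count to be set against. These shares are of all merged regions, and the share among regions with the 3 proteins was not computed off chromosomes 1 to 19. The cause of the lower shares was not tested.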

How the results depend on the processing

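Of 69 recomputed values over 15 results, 45 stayed within the 95% interval of the reported value or, for the number of members, within 1.5 times the reported count. All 24 others are given here, and the cause was not tested. Dropping each list's peaks under its median fold left 1899 members, which overlapped 1407 of the 4895 (28.7%). The share of regions with the 3 proteins that lack Nanog and Smad3 was then 66.0%. The Nanog and Smad3 lists were cut as well, so regions could lose these peaks through the cut itself. By construction the cut raised the shares in the top 20% of a list, to 53.8% for Tgif1, 58.1% for Tgif2 and 43.7% for Hdac1. It gave summit distances of 28 bp (Tgif1 to Tgif2), 47 bp (Tgif1 to Hdac1) and 53 bp (Tgif2 to Hdac1). Joining by summits within 200 bp gave 3394 members, which overlapped 3100 of the 4895 (63.3%), among 6227 regions with the 3 proteins. The shares in the top 20% of a list were then 27.4%, 30.4% and 17.2%. By construction, the distances were shorter, at 29, 41 and 44 bp. With tags in place of fold the shares in the top 20% of a list were 24.6%, 31.3% and 19.9% and the rank correlations 0.618, 0.459 and 0.443. The share lacking Nanog and Smad3 was 53.7% when peaks within 500 bp were also merged, 55.8% with the top 1% of peaks by tags dropped and 55.8% without chromosome 1. That merge also left 12.98% of members with another within 10 kb. An overlap of 50% of the shorter peak gave 4934 members and counting touching peaks as overlapping, added after seeing the data, 4894. Start-site distances and windows for sequence content were planned and not run, since mm9 annotation and sequence were not used here. No paired analysis was possible because each factor has 1 library and no result comes from a test, and no replicate could be left out. Library depths are not given in the sources used here, which limits what a missing Nanog or Smad3 peak shows.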
